A study of Mus musculus with 6 samples.

Results

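RNA from purified red cells, which no longer divide, held transcripts of the machinery that runs and stops cell division. Transcripts of other cells were present too, and which cells these came from was not tested. The 8 genes described here were taken by mouse symbol from the 27179 genes counted. They are the cyclin Ccnd3, the CDK inhibitors Cdkn1b and Cdkn2d, the mitotic regulators Cdc25b, Pttg1 and Cdc20, the antiproliferative gene Btg2 and the histone gene H2aj. All 8 had counts, and 7 had enough for the test. Cdc20 did not. RNA came from purified erythrocytes of single BalB/c males, 3 heterozygous for the C587R allele of the messenger RNA export receptor Nxf1 (Nxf1+/C587R) and 3 wild-type littermates (Nxf1+/+). Each of 3 batches named in the labels held 1 mutant and 1 wild-type library. The allele was carried in the whole animal, and the labels give no age. The genes were chosen by name with their log2 fold changes between genotypes in these same libraries known, among them the lower calls of H2aj and Pttg1. Their genotype differences are therefore a description, and adjusted p-values only place a gene in the table of all genes. Each library is a separate animal.

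Erythroid precursors divide a few last times, leave the cycle, condense the nucleus and expel it. The reticulocyte that enters the blood makes no new messenger RNA and loses what is left as it matures. Cyclin D with its kinase starts a cycle through phosphorylation of the retinoblastoma protein, CDK inhibitors hold it back, CDC25 phosphatases switch on mitotic CDK1, and the anaphase-promoting complex with CDC20 destroys securin to separate the chromatids. Histone genes of the replication type make messages that normally end in a stem-loop without a poly(A) tail, while replacement histones such as H2A.J have polyadenylated messages. These libraries were made from polyadenylated RNA.

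Total counts ran from 14636739 to 15790336 per library, of which 1627997 to 1877571 were not globin. All 12 erythrocyte markers matched to a counted gene were seen and took 914059 to 920447 CPM (counts scaled to a fixed library total). Hbb-bt, also planned as a marker, was not matched. Both of the following scales are used. CPM of total counts divides by the library total, and TMM scaling (trimmed mean of M values) sets most genes to no change on average. TMM factors were 0.720 to 1.06 in the mutants and 1.11 to 1.23 in wild type. The median log2 fold change of the 2823 genes tested was −0.06 with TMM and −0.53 with total counts, a shift against which each gene is to be read. A gene can thus be lower than wild type on one scale and level with it on the other. In such bulk samples fewer cells of a type and less RNA per cell cannot be told apart. Libraries also differed in transcripts of other cells. The 6 T and NK cell markers, all seen, summed to 18 to 29 counts in the mutants and 55 to 118 in wild type. The 5 B cell markers, all seen, summed to 88 to 102 and 155 to 358, and the 10 hepatocyte markers, all seen, to 1365 to 3063 and 14 to 92. Of the 6 early erythroid markers, most counts were of Tfrc, at 60 to 246 in the mutants and 145 to 706 in wild type. Kit, Gata2, Myb and Cd34 had 0 to 9 counts per library. All 6 were seen, and their sums overlapped at 85 to 279 and 167 to 745. So did the 6 neutrophil markers, of which Elane was at 0 (518 to 1035 and 993 to 1245), the 6 platelet markers, all seen (50 to 149 and 130 to 251), and the 5 monocyte and macrophage markers, all seen (137 to 297 and 151 to 248). Exocrine pancreas markers, 6 of 6 seen, reached 195 counts in wild-type library 1 and 0 to 2 in any other library. The part of these transcripts in the results below was not tested.

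The 8 genes fell into a high tier, a low tier and Cdc20. Per kilobase of the gene length listed in the files, Cdc25b was highest, at 33.7 ± 9.96 CPM of total counts (SD over 6 libraries), the 117th level among the 27179 genes. Pttg1 followed at 16.1 ± 6.39 and H2aj at 8.37 ± 3.56, the 162nd and 253rd. The order Cdc25b, Pttg1, H2aj held in 6 of 6 libraries, and H2aj was above Btg2 in 6 of 6. Btg2 (1.17 ± 0.384), Cdkn1b (1.14 ± 0.393), Ccnd3 (0.889 ± 0.144) and Cdkn2d (0.743 ± 0.152) formed a low tier whose ranges overlapped. Btg2 was above Cdkn1b in 3 of 6 libraries, Cdkn1b above Ccnd3 in 4 of 6, and Ccnd3 above Cdkn2d in 5 of 6. This order within the low tier depended on the gene length. With GENCODE exon lengths, an alternative chosen after seeing the data, Ccnd3 was at 0.229, below Cdkn2d at 0.600, Cdkn1b at 0.602 and Btg2 at 1.31. Cdc20 was last, at 0.0241 ± 0.0373 and 10588th. The phosphatase of mitotic entry and the anaphase inhibitor thus had a higher level per length than the G1 cyclin and both CDK inhibitors. Of the summed counts of the 8 genes, 1506 to 1888 per mutant library and 2925 to 3432 per wild-type library, Cdc25b took 69.0% ± 2.57 in mutant and 65.5% ± 3.13 in wild-type animals (SD over 3 libraries). Pttg1 took 15.6% ± 0.926 and 18.8% ± 2.09, H2aj 8.22% ± 1.05 and 10.5% ± 0.601, Btg2 2.36% ± 0.572 and 2.21% ± 0.406, Cdkn1b 2.39% ± 0.918 and 1.32% ± 0.238, Ccnd3 1.61% ± 0.442 and 1.09% ± 0.0895, and Cdkn2d 0.793% ± 0.155 and 0.480% ± 0.0640. Cdc25b made up most of the sum in every library.

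**Figure D1:**
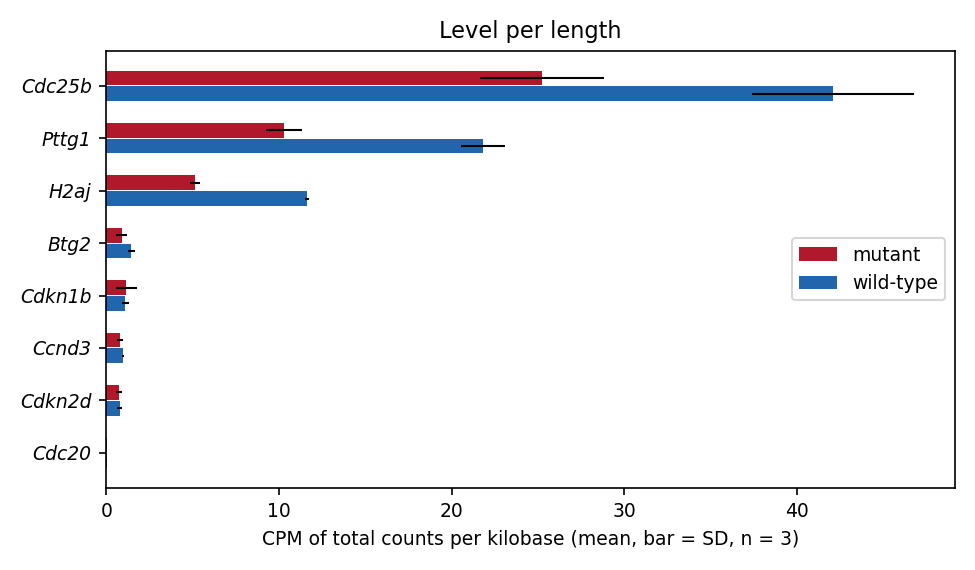
Bars give the mean level per length (CPM of total counts per kilobase, x axis) of each of the 8 genes in mutant and wild-type libraries, with the SD over 3 libraries. Cdc25b, Pttg1 and H2aj stand above the other genes in both genotypes, and Cdc20 is near 0.

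Between genotypes, the 2 genes that were lower in the fit across all genes were H2aj and Pttg1. That is 2 of the 7 genes tested, and 0 of 7 were higher, where 1.06% of all genes were called lower, 5.99% higher and 7.05% in either direction (edgeR quasi-likelihood test, adjusted p under 0.05). The genes were chosen with this contrast known, so nothing is read from that share. With batch as a term the same 2 were lower, beside 2.13% of all genes lower, 6.87% higher and 9% in either direction. With RLE size factors (relative log expression) 0 were lower beside 0.673% of all genes lower, 6.2% higher and 6.87% in either direction. With DESeq2 0 were lower beside 0.39% lower, 6.27% higher and 6.66% in either direction. With total counts 3 were lower, Cdc25b added, beside 8.68% lower, 4.07% higher and 12.8% in either direction, and with non-globin counts as the total 3 beside 6.41% lower, 4.25% higher and 10.7% in either direction. No setting named here called any of the 7 higher. On TMM-scaled CPM, H2aj and Pttg1 were lower in every mutant than in any wild type, Cdkn1b was higher in every mutant, and Ccnd3, Cdkn2d, Cdc25b and Btg2 overlapped. Among all genes tested, 11.1% had all mutants below wild type and 12.3% all above on that scale. On CPM of total counts, H2aj, Pttg1, Cdc25b and Ccnd3 had all mutants below wild type, as had 31.5% of all genes, and none of the 7 had all mutants above, as had 5.31%.

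**Figure D2:**
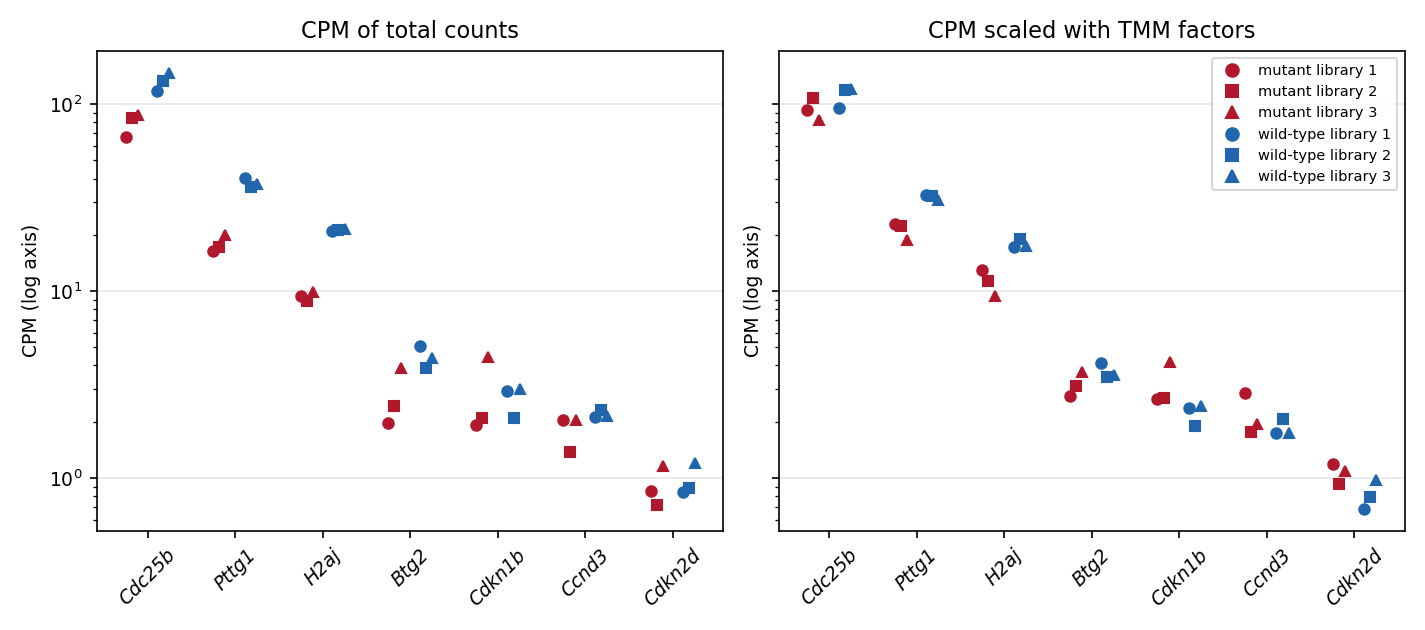
Each point is 1 library, with CPM on a log axis, from total counts on the left and with TMM factors on the right. Cdc20, with 0 counts in 4 libraries, is left out. Libraries are to be compared within a gene, and for H2aj and Pttg1 the mutant and wild-type points are apart in both panels.

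H2aj (Entrez gene 232440, chromosome 6, 136808248 to 136810074, plus strand, mm10) encodes histone H2A.J, a replacement form of H2A. Its count was 142, 135 and 145 over the mutant libraries against 326, 311 and 339 over the wild-type libraries. The mutant values lay close together and so did the wild-type values, with a wide gap between them. On CPM of total counts they were 9.37 ± 0.526 and 21.2 ± 0.225 (SD, n = 3 each), so that the mutants held 44.2% of the wild-type level. With TMM scaling they were 11.2 ± 1.83 and 17.9 ± 0.986 CPM, a log2 fold change of −0.67 (SE 0.18, edgeR adjusted p = 0.0305). Within batches 1, 2 and 3 the TMM-scaled log2 differences were −0.39, −0.74 and −0.90, and with total counts −1.17, −1.25 and −1.11. The spread between batches on the TMM scale was thus wider than on total counts. Among the 388 genes tested with a mean of at least 100 counts, whose median log2 fold change was 0.14, H2aj had the 12th lowest value. Of the 6 fits that each dropped a library, only the one without wild-type library 1 kept the call (edgeR adjusted p = 0.0259 to 0.224). It was also lost with DESeq2 (adjusted p = 0.0872), with RLE size factors (edgeR adjusted p = 0.0694), with globin genes removed before TMM (0.0641), without a filter (0.166) and with any 1 batch left out (0.0584 to 0.319). With total counts the value was −1.18 (SE 0.18, edgeR adjusted p = 0.000349). On that scale the median over all genes tested was −0.53, and 8.68% of them were called lower.

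Pttg1 (Entrez gene 30939, chromosome 11, 43420244 to 43427463, minus strand) encodes securin, the inhibitor of separase that is destroyed at anaphase. Mutant libraries 1 to 3 gave 250, 264 and 292 counts, wild-type libraries 625, 528 and 593. All mutant libraries were below all wild-type libraries, with no overlap. On CPM of total counts they were 17.9 ± 1.81 and 37.9 ± 2.25 (SD, n = 3 each), or 47.2% of the wild-type level, where the median log2 fold change over all genes tested was −0.53. With TMM scaling they were 21.3 ± 2.16 and 31.9 ± 1.18 CPM, a log2 fold change of −0.58 (SE 0.17, edgeR adjusted p = 0.0385), and the 17th lowest value among the same 388 genes. Within the batches it was −0.52, −0.54 and −0.70. Like that of H2aj, the call survived only 1 of the 6 single omissions, that of wild-type library 1 (edgeR adjusted p = 0.0433 to 0.250). It was also lost with DESeq2 (adjusted p = 0.109), with RLE size factors (edgeR adjusted p = 0.0967), with globin genes removed (0.0920), without a filter (0.292) and with any 1 batch left out (0.157 to 0.312).

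H2aj and Pttg1 stood in a similar proportion in all libraries. H2aj counts per Pttg1 count were 0.525 ± 0.0377 for mutant and 0.561 ± 0.0350 for wild-type libraries (SD, n = 3 each), and these ranges overlapped (0.497 to 0.568 and 0.522 to 0.589). A ratio of counts in 1 library needs no scaling factor. Other ratios, chosen after their values were seen, separated the groups. Pttg1 per count of Ube2c, the ubiquitin-conjugating enzyme of the anaphase-promoting complex, was 0.777 to 0.912 in the mutants and 1.25 to 1.82 in wild type. H2aj per count of E2f2, an E2F factor of erythroid maturation, was 0.122 to 0.152 and 0.333 to 0.420, without overlap. E2f2 itself had a log2 fold change of 0.83 with TMM scaling (SE 0.17, edgeR adjusted p = 0.00256) and 0.32 with total counts (adjusted p = 0.156). The ratio to E2f2 therefore does not show a change of H2aj alone. How often ratios of other gene pairs separate the groups was not examined.

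**Figure D3:**
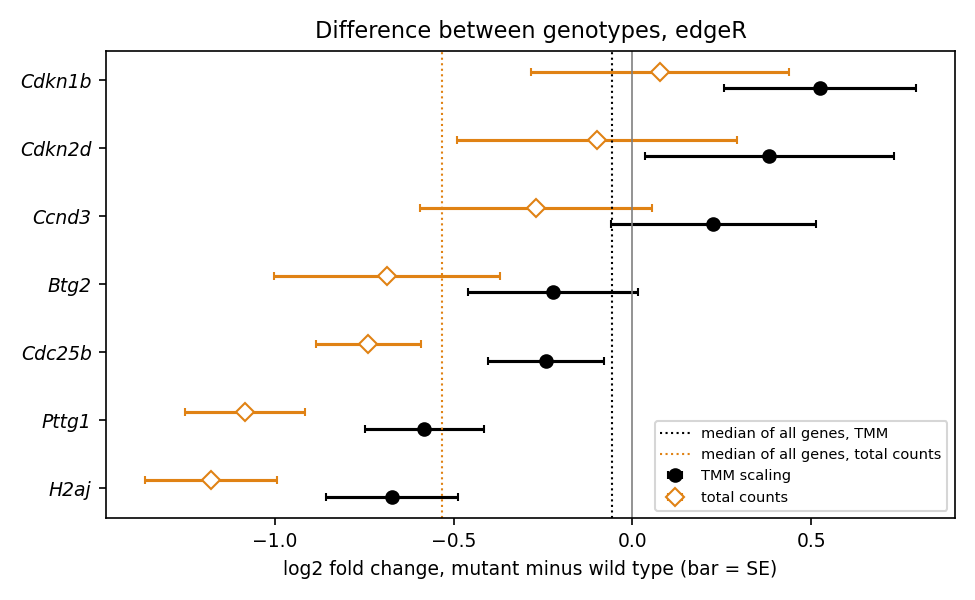
The x axis is the log2 fold change, mutant minus wild type, of the 7 genes tested, with SE bars, under TMM scaling (filled) and total counts (open diamonds). Dotted lines mark the median of all genes tested on each scale (−0.06 and −0.53), and H2aj and Pttg1 lie left of it on both.

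Cdc25b (Entrez gene 12531, chromosome 2, 131186436 to 131198511, plus strand), the phosphatase that activates mitotic CDKs, gave 1011, 1286 and 1282 counts in mutant libraries against 1825, 1951 and 2329 in wild-type ones. On CPM of total counts, every mutant was below every wild type, at 79.5 ± 11.3 against 133 ± 14.9 (SD, n = 3 each). With TMM scaling the groups overlapped, at 94.5 ± 12.8 and 112 ± 13.7 CPM. The log2 fold change was −0.24 with TMM (SE 0.16, edgeR adjusted p = 0.494) and −0.74 with total counts (SE 0.15, edgeR adjusted p = 0.00297). Within batches the TMM-scaled log2 differences were −0.05, −0.14 and −0.54. Its value on total counts thus lay nearer the median of all genes than those of H2aj and Pttg1. Cdc25b per E2f2 count, a ratio also chosen after its values were seen, was 1.08 to 1.16 in the mutants and 2.29 to 2.46 in wild type. E2f2 itself had a log2 fold change of 0.83 with TMM, so this ratio does not show a change of Cdc25b alone.

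Cdc20 (Entrez gene 107995, chromosome 4, 118432901 to 118437343, minus strand), the activator that turns the anaphase-promoting complex on securin, had 0, 2 and 0 counts in mutant libraries and 0, 0 and 2 in wild-type ones. A count of 0 allowed up to 3 counts, or 0.190 to 0.205 CPM, so no difference was detectable at this depth. Libraries with at least 250 counts of securin thus had at most 2 of the activator that targets it. Other subunits and partners had counts too, some of them as few as Cdc20. On a list of the complex, the spindle checkpoint and securin, all 26 genes had a count in at least 1 library. Anapc10 and Ube2s had only 0 to 1 per library and Bub1b 0 to 2, so Cdc20 was not alone near 0. Of these 5 were tested, 0 were higher and 1, Pttg1, was lower, beside 5.99% and 1.06% of all genes. The others tested were Ube2c (log2 0.21), Fzr1 (0.09), the coactivator used after mitosis and in G1, Anapc5 (0.03) and Anapc13 (−0.44), with edgeR adjusted p of 0.418 to 0.977.

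Btg2 (Entrez gene 12227, chromosome 1, 134074865 to 134079155, minus strand), a p53 target that slows division and recruits the deadenylase of messenger RNA, had 30, 37 and 57 counts in mutant libraries and 79, 57 and 69 in wild-type ones. The third mutant library reached the second wild-type library, so the groups touched. On CPM of total counts they were 2.77 ± 1.00 and 4.45 ± 0.616 (SD, n = 3 each). The log2 fold change was −0.22 with TMM (SE 0.24, edgeR adjusted p = 0.717) and −0.69 with total counts (edgeR adjusted p = 0.146). Within batches 1, 2 and 3 the TMM-scaled log2 differences were −0.58, −0.15 and 0.05, so they did not share a sign. On a list of 20 BTG/TOB proteins and the deadenylases they bind, 19 had a count, 7 were tested, and 0 were higher or lower. Btg3, a relative, was the nearest to the threshold, at 0.96 (SE 0.32, edgeR adjusted p = 0.0867), with 25, 35 and 23 counts against 25, 19 and 18. Pabpc1, the poly(A)-binding protein, had −0.26 (adjusted p = 0.442), Tob1 0.57 (0.480) and Cnot2 −0.50 (0.583). Cnot2 had 8, 11 and 8 counts against 26, 10 and 20, so it reached 10 in every wild type but not in every mutant. Of 17 p53 targets, 7 were tested and 0 called. Sesn1 had −1.71 (SE 0.63, edgeR adjusted p = 0.137), with 5, 3 and 0 counts against 12, 12 and 15, so that it passed the filter on low counts through the wild-type libraries alone. Mdm2 had −0.55, Trp53inp1 0.38 and Sesn2 0.14. Mdm2, with 4, 6 and 11 counts against 16, 12 and 16, reached 10 in every wild type but not in every mutant.

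Neither CDK inhibitor passed the test, and both had values above 0 with TMM. Cdkn1b (Entrez gene 12576, chromosome 6, 134920401 to 134925525, plus strand) encodes p27, which binds and blocks cyclin-CDK complexes. Counts were 29, 32 and 65 for mutant and 45, 31 and 47 for wild-type libraries. Mutant library 3 held the highest count, and the other 2 mutants were near the lowest wild type. On TMM-scaled CPM the mutants, at 3.18 ± 0.879, were all above wild type, at 2.23 ± 0.291 (SD, n = 3 each), while on CPM of total counts the groups overlapped. The log2 fold change was 0.52 (SE 0.27, edgeR adjusted p = 0.310) and 0.08 with total counts (adjusted p = 0.873). Cdkn2d (Entrez gene 12581, chromosome 9, 21288459 to 21291421, minus strand), encoding p19, an inhibitor of the cyclin D kinases, had 13, 11 and 17 counts against 13, 13 and 19, which overlapped. Its log2 fold change was 0.38 with TMM (SE 0.35, edgeR adjusted p = 0.648) and −0.10 with total counts. Of the 7 CDK inhibitor genes, 6 had a count, Cdkn2a was at 0, only these 2 were tested, and 0 were called. On a list of 9 genes for turnover of such inhibitors, 2 were tested and 0 called, Ubac1 (−0.24) and Rnf123 (0.05), which together form a ubiquitin ligase for p27 (edgeR adjusted p = 0.512 and 0.932).

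Ccnd3 (Entrez gene 12445, chromosome 17, 47505051 to 47599689, plus strand) encodes cyclin D3, the D-type cyclin best known in late erythroid precursors. Mutant libraries had 31, 21 and 30 counts, and wild-type libraries 33, 34 and 34. Every mutant was below every wild type in counts, by as little as 2. With TMM scaling the groups overlapped, and the log2 fold change was 0.23 (SE 0.29, edgeR adjusted p = 0.764), against −0.27 with total counts (adjusted p = 0.537). Cyclin D3 made up most D-type cyclin counts in 5 of the 6 libraries, at 83.8% (95% Wilson interval 68.9 to 92.3), 67.7% (50.1 to 81.4) and 75.0% (59.8 to 85.8) in the mutants, and 87.2% (73.3 to 94.4) and 79.1% (64.8 to 88.6) in wild-type libraries 2 and 3. The exception was wild-type library 1, at 40.2% (30.3 to 51.1), which had 39 counts of Ccnd2 where no other library had over 9. Its Ccnd1 count of 10 was the highest as well, against 0 to 4 elsewhere. That library also held the exocrine pancreas transcripts, and a link to the cyclin counts was not tested. Of 11 G1 cyclins and kinases, all had a count and only Ccnd3 was tested.

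Of 23 S phase genes all had a count but only 2 were tested, Ccna2 (log2 −0.50) and Mcm7 (−0.58), and 0 were called (edgeR adjusted p = 0.499 and 0.636). Of 29 mitotic kinase and spindle genes all had a count, 7 were tested and 0 called. Mki67, the proliferation antigen, had −0.40 (SE 0.22, adjusted p = 0.374), Kif23 0.38, Nusap1 0.19 and Birc5 −0.25, with adjusted p of 0.627 to 0.802. Of 20 genes of the Rb, E2F and DREAM group all had a count and 7 were tested. Of these 1, E2f2, was higher, beside 5.99% of all genes. Tfdp2, a partner of E2F, had −0.13, Rbl2 −0.45 and Rbbp4 −0.26 (adjusted p = 0.783, 0.754 and 0.775). Of 18 genes of chromatin condensation and enucleation all had a count, 9 were tested and 0 called, among them Kmt5a (0.57), Kat2b (0.59), Diaph3 (−0.38) and Rac2 (−0.26). The list medians with TMM were −0.10 for mitosis, −0.25 for the Rb, E2F and DREAM group and 0.15 for condensation, beside −0.06 over all genes. With total counts Mki67, Tfdp2, Ubac1 and Pabpc1 were lower, at −0.90 to −0.61 (edgeR adjusted p 0.00518 to 0.0457). On that scale 8.68% of all genes were called lower, and the median over all genes was −0.53. Sesn1 was called lower too (adjusted p = 0.0298), with the limit on its filter given above.

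Among other histone genes 1 passed the test, where 1.06% of all genes were called lower and 5.99% higher. Of 63 replication-dependent histone genes 56 had a count and 3 were tested, all on few counts. H1f2, a linker histone, was lower, with 20, 15 and 16 counts against 55, 45 and 54 and a log2 fold change of −1.05 (SE 0.29, edgeR adjusted p = 0.0325). H2bc4, a histone H2B gene, had 34, 36 and 37 against 85, 79 and 89, without overlap, and −0.71 (SE 0.23, adjusted p = 0.0795). H4c9, a histone H4 gene that reached 10 counts in every wild type and in no mutant, had −0.91 (adjusted p = 0.304). With total counts H1f2 and H2bc4 were lower, at −1.56 and −1.21 (edgeR adjusted p = 0.00436 and 0.00805), beside 8.68% of all genes. The call of H1f2 with TMM was lost with DESeq2 (adjusted p = 0.125), without a filter (edgeR adjusted p = 0.0717) and with any 1 batch left out (0.0562 to 0.280), and of the 6 single omissions only that of mutant library 1 kept it (edgeR adjusted p = 0.0333 to 0.168). Counts over all 63 genes were 94 to 100 in the mutants and 211 to 252 in wild type. Most of these counts were those of H2bc4 and H1f2, so the sum does not describe the whole list. On CPM of total counts, 31.5% of all genes tested had all mutants below wild type.

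H3f3a, a gene of the replacement histone H3.3, gave another value. It had 93, 143 and 147 counts in mutant libraries against 187, 207 and 213. The log2 fold change was −0.15 with TMM (SE 0.20, edgeR adjusted p = 0.770) and −0.63 with total counts (adjusted p = 0.0759). H3f3b, which also encodes H3.3, had 0, 2 and 0 counts against 1, 0 and 1 and was not tested. H2aj per H3f3a count was 0.944 to 1.53 in the mutants and 1.50 to 1.74 in wild type, ranges that overlapped. Of 11 histone variant genes 10 had a count and Macroh2a2 was at 0. Of the 4 tested 1, H2aj, was lower, beside 1.06% of all genes. Cenpa and Macroh2a1 had −0.03 and −0.26. Within the H2A variants, H2aj took 86.5% to 94.0% of counts in the mutants and 90.4% to 93.4% in wild type. The 17 clustered H2A genes, whose coding sequences are close to that of H2aj, had 4 to 6 counts in the mutants and 9 to 15 in wild type. How reads shared between such copies were counted is not given in the sources used here, so the H2aj count is uncertain to that extent.

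**Figure D4:**
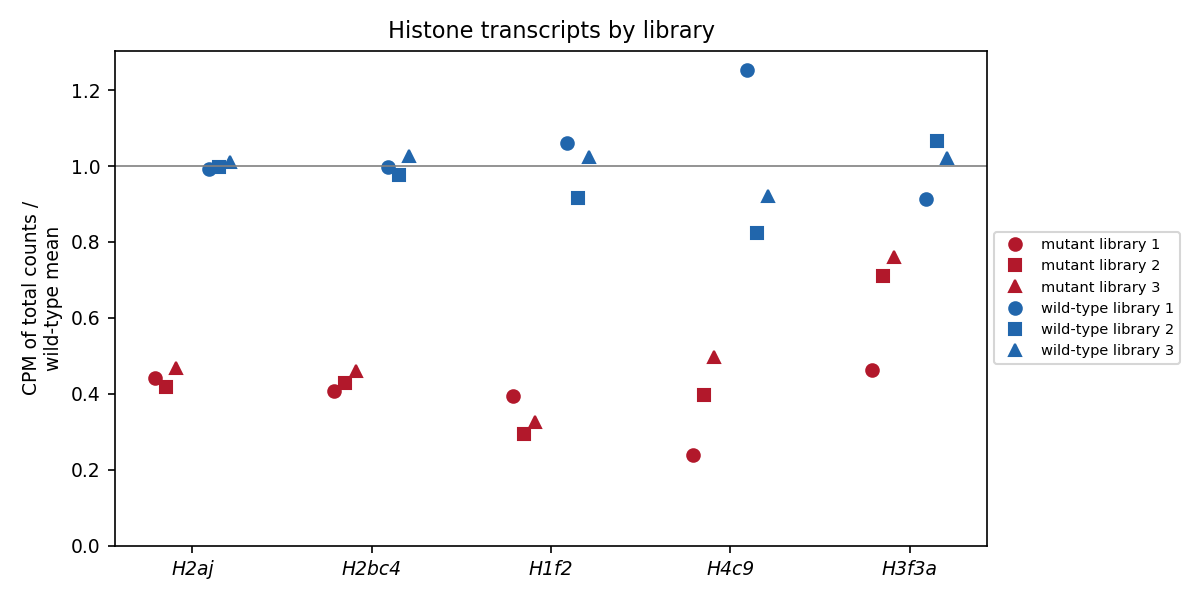
The y axis is CPM of total counts divided by the wild-type mean of the same gene, and each point is 1 library. H2aj, H2bc4, H1f2 and H4c9 lie below the wild-type points in all 3 mutants, and H3f3a is also lower in each mutant but by less in mutant libraries 2 and 3. On this scale 31.5% of all genes tested had all mutants below wild type. H4c9 reached 10 counts in every wild type and in no mutant.

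The profile most like H2aj over the 6 libraries was that of H2bc4. After each gene was centred on its own mean log2 CPM (TMM), the root mean square difference was 0.0484, the smallest of 2698 genes compared, and the next was Pttg1 at 0.0904. There were 3.75 to 4.18 H2aj counts per H2bc4 count in the mutants and 3.81 to 3.94 in wild type. For Pttg1 the nearest were Ranbp2 (0.0696) and H2bc4 (0.0754). For Cdc25b they were Carm1 (0.0236) and Slc25a51 (0.0379), for Btg2 Zmynd11 (0.0487) and Ssbp3 (0.0767), and for Cdkn1b Narf (0.113) and Pde1b (0.119). Cdkn2d was nearest to Ikbkg (0.0591) and Sub1 (0.0744), and Ccnd3 to Hebp1 (0.0647) and Setd3 (0.0841). With 6 libraries in 2 groups, genes with a like difference between genotypes also have like profiles.

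Promoter sequences of 4 of the genes are shown, H2aj for the gene with the largest difference of the 7, Cdc25b for the highest level, and Btg2 and Cdc20 for motifs known from stress-response and mitotic genes. They are RefSeq sequences of GRCm38.p6, on the strand of the gene, and hold the 240 bases that end 10 bases before the RefSeq start. Capitals mark the motif CCAAT, which reads ATTGG when it lies on the other strand, the core TTTGAA of the cell cycle homology region, and the cyclic AMP element TGACGTCA. The GATA motif, spelled AGATAA and also as TGATAA, was searched too, all on both strands.
H2aj (chr6:136807998-136808237, plus strand): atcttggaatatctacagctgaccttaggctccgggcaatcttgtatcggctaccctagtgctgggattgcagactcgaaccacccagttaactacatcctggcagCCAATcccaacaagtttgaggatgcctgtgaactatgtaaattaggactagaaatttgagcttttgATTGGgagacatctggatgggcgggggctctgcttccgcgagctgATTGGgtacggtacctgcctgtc
Cdc25b (chr2:131186698-131186937, plus strand): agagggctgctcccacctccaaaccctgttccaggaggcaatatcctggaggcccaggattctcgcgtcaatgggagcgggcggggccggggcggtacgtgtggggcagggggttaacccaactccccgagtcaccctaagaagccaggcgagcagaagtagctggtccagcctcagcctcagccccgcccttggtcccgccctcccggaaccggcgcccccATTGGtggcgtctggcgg
Btg2 (chr1:134079166-134079405, minus strand): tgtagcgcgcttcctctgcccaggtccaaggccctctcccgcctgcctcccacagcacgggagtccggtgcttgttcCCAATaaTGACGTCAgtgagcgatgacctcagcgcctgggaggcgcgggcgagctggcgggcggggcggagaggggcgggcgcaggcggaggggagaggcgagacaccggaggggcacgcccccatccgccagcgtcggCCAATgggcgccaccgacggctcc
Cdc20 (chr4:118437354-118437593, minus strand): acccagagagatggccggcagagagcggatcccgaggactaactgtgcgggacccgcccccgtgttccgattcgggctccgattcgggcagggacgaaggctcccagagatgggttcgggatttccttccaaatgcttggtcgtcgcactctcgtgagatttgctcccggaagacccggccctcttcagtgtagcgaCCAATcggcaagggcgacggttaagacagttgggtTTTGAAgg

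The H2aj window held 3 CCAAT matches, which begin 144, 78 and 33 bases before the start, the first on the strand of the gene and the others on the opposite strand. Of 32817 promoter windows of this length in the same table, 33.0% held at least 1 match, 9.63% at least 2 and 2.62% at least 3. Btg2 and Cdkn1b held 2, and Cdc25b, Cdc20, Cdkn2d and H1f2 held 1. Pttg1 held 0 in the window listed, and the 2 Ccnd3 windows held 0 and 1. The windows of Pttg1 and Cdc25b and the Ccnd3 window with the match lie inside the gene intervals given above. That of Cdkn2d lies partly inside its interval. The TTTGAA match of Cdc20 begins 18 bases before its start, and 15.5% of windows held one. The TGACGTCA match of Btg2 begins 166 bases before its start, and 1.44% of windows held one. No window of these genes held a GATA motif as spelled, where 16.2% of all windows did. A match is only a run of letters, and these counts do not bear on which factor binds.

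Some counts could include reads of partners on the opposite strand, since the library kit named in the labels (TruSeq RNA v2) does not mark strand and the counting setting is not given in the sources used here. In GENCODE M21 the exons of Ccnd3 overlap those of Bysl by 361 bases, those of Cdc20 overlap Elovl1 by 53, those of Cdc25b overlap Spef1 by 92, and H2aj overlaps the predicted small RNA Gm44364 by 141. Bysl had 0 to 3 counts per library and Spef1 0 to 2. Elovl1 had 1 to 10, where Cdc20 itself had 0 to 2. For Gm44364 no count was examined.

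**Figure D5:**
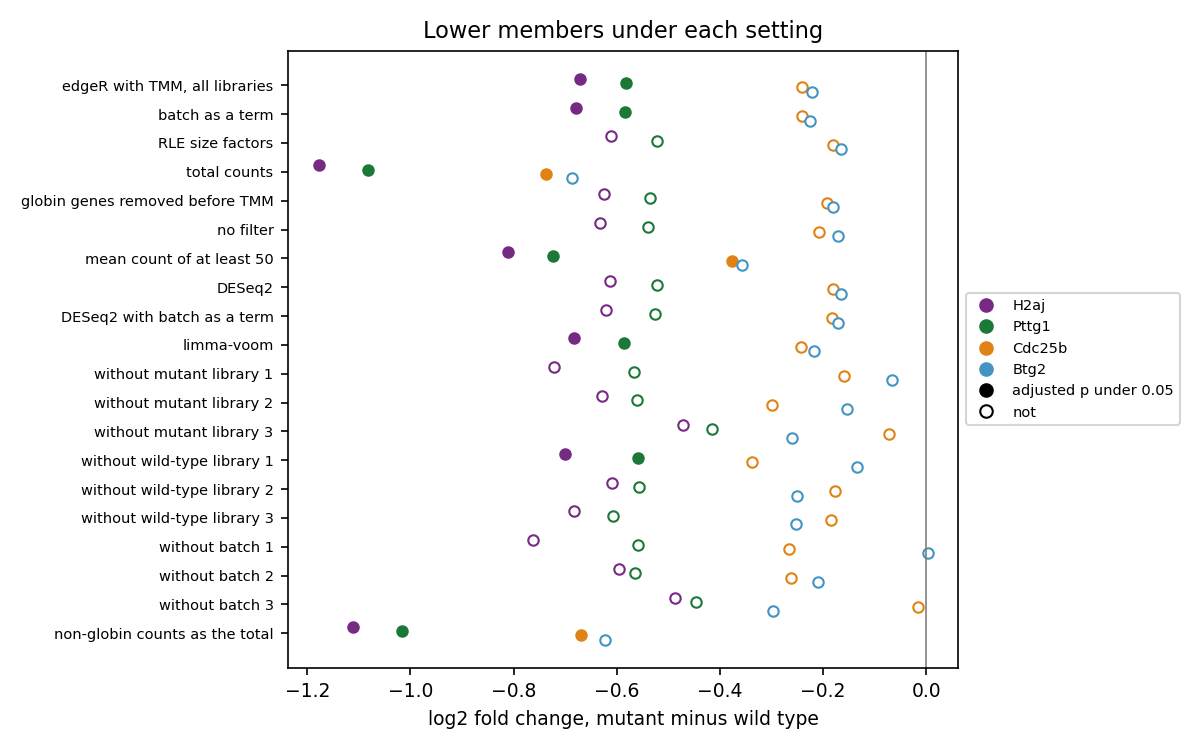
Each row is 1 way of processing and the x axis is the log2 fold change of H2aj, Pttg1, Cdc25b and Btg2. Filled points have an adjusted p under 0.05. H2aj and Pttg1 are left of 0 in all 20 rows, and Btg2 crosses 0 in the row without batch 1.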

How the data were processed

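The authors deposited raw counts per gene (Entrez number), 1 file per library, with the gene length. CASAVA 1.8.2, Subread and featureCounts are named, with build mm10, per the submitters' processing notes; settings for strand and shared reads, the annotation and the other versions are not given in the sources used here. Symbols for 25275 of 27179 genes came from RefSeq (GRCm38.p6). The main comparison was edgeR 4.0.16 (quasi-likelihood F test, robust) in R 4.3.3 on the deposited counts, with TMM scaling and edgeR's expression filter. The model held genotype alone, and p-values were adjusted by Benjamini-Hochberg across the 2823 genes kept, with a threshold of 0.05. SE is the absolute log2 value over the root of F. Alternatives included DESeq2 1.42.0, limma-voom (limma 3.58.1), other scalings and filters, batch as a term, and leaving out libraries or batches. Within-batch differences added 0.5 to each count. The 8 genes and the 12 lists were chosen with earlier results of these data known. Named genes are the 8, up to 4 tested genes with the smallest p per list and the 2 nearest profiles per gene. Ratios to Ube2c, E2f2, H3f3a and H2bc4 were chosen after values were seen. On simulated counts for 2823 genes in the mutant against wild-type comparison, edgeR called 14% of the genes set to change 1.5-fold. For 2-fold changes the share was 20%, for 4-fold 94% and for 8-fold 98%. The labels give each mutant a batch number shared with 1 wild-type library, which pairs them. Deviations of same-batch libraries correlated at −0.116, −0.0855 and −0.0439 across genes. Intervals and limits cover counting error only.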

Additional observations from a re-analysis of the deposited data

How the results depend on the processing

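Genes called over the whole table were 169 higher and 30 lower. The lower count was 60 with batch as a term (replicate block), 19 with RLE, 19 with globin genes removed before TMM, 245 with total counts, 82 without a filter (382 higher), 49 with a mean of at least 50 counts (66 higher), 11 with DESeq2, 3 with DESeq2 and the block, 19 without batch 2 and 3 without batch 3, and 181 with non-globin counts as the total, an alternative added after seeing the data. Leaving out 1 library gave 137 to 244 higher and 8 to 77 lower.

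Of the 8 genes, 2 were lower, and 0 with RLE, globin genes removed, no filter, DESeq2, DESeq2 with the block, or without batch 1, 2 or 3 (0 to 2 with 1 library left out). Pairing by batch kept both calls (edgeR adjusted p = 0.0130 for H2aj and 0.0291 for Pttg1), as did limma-voom. H2aj and Pttg1 lost their calls at −0.61 and −0.52 with RLE, −0.62 and −0.53 with globin genes removed, −0.63 and −0.54 without a filter, −0.61 and −0.52 with DESeq2, −0.62 and −0.53 with DESeq2 and the block, −0.76 and −0.56 without batch 1, −0.60 and −0.57 without batch 2, and −0.49 and −0.45 without batch 3. With 1 library left out they ranged from −0.72 to −0.47 and from −0.61 to −0.42. Neither turned positive under any setting run. Cdc25b became lower with total counts (−0.74), a mean of at least 50 counts (−0.38) and non-globin counts (−0.67). Ccnd3 turned to −0.27 with total and −0.20 with non-globin counts, Cdkn2d to −0.098 and −0.031, and Btg2 to 0.0030 without batch 1. Over the lists beside the 8 genes, 1 gene was higher and 1 lower, where 5.99% and 1.06% of all genes were. These became 0 and 7 with total counts (4.07% and 8.68% of all genes) and 0 and 6 with non-globin counts (4.25% and 6.41%). The lower count was 0 with no filter, DESeq2, DESeq2 with the block, and without batch 1, 2 or 3, and the higher count 0 without batch 2 (1 to 2 higher and 0 to 1 lower with 1 library left out). The share of calls that were higher was 84.9% with TMM, 31.9% with total counts, 39.9% with non-globin counts, 57.4% with a mean of at least 50 counts and 94.1% with DESeq2. Levels per length of Ccnd3 and Cdkn1b were 0.229 and 0.602 with GENCODE exon lengths, added after seeing the data; RefSeq exon lengths were not run. The cause of these shifts was not tested.

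Some uncalled list genes changed sign as follows on the log2 scale. With total counts, Anapc5 −0.48, Fzr1 −0.40, Kif23 −0.10, Nusap1 −0.30, Rnf123 −0.42, Sesn2 −0.33, Trp53inp1 −0.072, Ube2c −0.27. With the mean of 50, Fzr1 −0.036, Rnf123 −0.081. Without batch 1, Anapc5 −0.16, Cenpa 0.088, Fzr1 −0.052, Macroh2a1 0.18, Rbl2 0.42. Without batch 2, Birc5 0.094, Rbbp4 0.043. Without batch 3, Birc5 0.0032, Macroh2a1 0.30, Mcm7 0.32, Sesn2 −0.10, Tfdp2 0.068. With non-globin counts, Anapc5 −0.41, Fzr1 −0.33, Kif23 −0.031, Nusap1 −0.23, Rnf123 −0.36, Sesn2 −0.27, Trp53inp1 −0.0066, Ube2c −0.21. Cenpa was 0.027 with RLE, 0.011 with globin genes removed, 0.026 without a filter, 0.027 under DESeq2, 0.066 under DESeq2 with the block, 0.042 under limma-voom. With 1 library left out, the ranges that crossed 0 were −0.14 to 0.25 for Anapc5, −0.24 to 0.41 for Cenpa, −0.062 to 0.24 for Fzr1, −0.26 to 0.014 for H3f3a, −1.10 to 0.13 for Macroh2a1, −0.39 to 0.036 for Rbbp4, −0.94 to 0.059 for Rbl2, −0.022 to 0.18 for Rnf123 and −0.049 to 0.39 for Sesn2. At this depth 20% of simulated 2-fold changes over 2823 genes were called.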
